A study of Mus musculus with 27 samples.

Results

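Matrix metalloproteases (MMPs) and their tissue inhibitors (TIMPs) were examined in the tibialis anterior muscle of mice after volumetric muscle loss (VML), the surgical removal of a large piece of a muscle. The 10 genes were chosen by symbol, as the rows named Mmp2, Mmp3, Mmp9, Mmp12, Mmp14, Mmp19, Timp1, Timp2, Timp3 and Timp4 among the 54532 genes of the deposited table, and each was found once. The muscles came from 8-week-old male C57BL/6 mice with no genetic change named in the labels, 5 without injury (Control) and 5, 6, 6 and 5 at 3, 7, 14 and 21 days after VML (D3, D7, D14 and D21). In the injured mice, 40% of the muscle was excised; GEO's design text has this done on 1 side and the study's methods on both, and the labels do not say whether any 2 samples came from 1 mouse. Messenger RNA of whole muscle was sequenced without strand information, and levels are given as FPKM. These are fragments mapped to a gene, scaled to its length and to a denominator per library. That denominator was 0.747 to 1.48 times the library's own total of reads.

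MMPs are zinc-dependent enzymes that are made as latent precursors and, once activated, cut collagens and other proteins of the extracellular matrix. Mmp2 and Mmp9 are gelatinases, Mmp3 is a stromelysin that also activates other MMPs, Mmp12 is the elastase of macrophages, Mmp14 is a collagenase anchored in the cell membrane, and Mmp19 is a secreted enzyme active on basement membrane proteins. TIMPs block active MMPs one to one, and Timp2 additionally bridges the Mmp2 precursor to Mmp14 at the cell surface, where it is activated. In injured muscle, these enzymes clear damaged matrix and release growth factors, and their balance with the TIMPs is studied for its part in scarring.

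On the mouse build GRCm38, Mmp3 (chromosome 9, 7445822 to 7455975) and Mmp12 (chromosome 9, 7344381 to 7369499) belong to a cluster of 10 Mmp genes that spans 7272514 to 7699585. Mmp2 lies on chromosome 8 (92827291 to 92853420), Mmp9 on chromosome 2 (164940780 to 164955850), Mmp14 on chromosome 14 (54431612 to 54445364) and Mmp19 on chromosome 10 (128790910 to 128800824). Timp1 (chromosome X, 20870166 to 20874735), Timp3 (chromosome 10, 86300372 to 86349506) and Timp4 (chromosome 6, 115241892 to 115252205) each lie inside a synapsin gene on the opposite strand, Syn1, Syn3 and Syn2, and Timp2 lies on chromosome 11 (118301069 to 118355740). Without strand information, reads from shared exonic bases cannot be assigned to 1 gene. These were 1733 bases of Timp3 with Syn3, 90 of Timp4 with Syn2, 157 of Mmp12 with Mmp1b, and 789 of Mmp19 with Tmem198b, whereas Timp1 shared 0 exonic bases with Syn1.

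For 7 of the 10 genes, RefSeq sequence upstream of the RNA start was at hand, in 8 windows of 250 bases on GRCm38.p6, since Mmp12 has 2 starts. They were searched on both strands for TGANTCA, the core of the site bound by AP-1 (the Fos and Jun factors). TATAAA, the letters of the TATA box, was searched for in the same way, at any position in the window. The windows of Mmp3 and Mmp12 are shown because both genes rose early after VML and hold a match, and those of Timp1 and Timp4 because these moved in opposite directions. Capitals mark the matches and each sequence is written 5′ to 3′ on the strand of the gene, ending at the base before the RNA start.
Mmp3, chr9:7445572-7445821, plus strand: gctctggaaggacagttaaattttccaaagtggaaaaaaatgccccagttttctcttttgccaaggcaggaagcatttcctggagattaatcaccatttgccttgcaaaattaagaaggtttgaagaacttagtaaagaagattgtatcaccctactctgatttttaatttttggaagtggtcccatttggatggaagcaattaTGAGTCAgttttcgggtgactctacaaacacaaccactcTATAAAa
Mmp12, start at 7347374, chr9:7347124-7347373, plus strand: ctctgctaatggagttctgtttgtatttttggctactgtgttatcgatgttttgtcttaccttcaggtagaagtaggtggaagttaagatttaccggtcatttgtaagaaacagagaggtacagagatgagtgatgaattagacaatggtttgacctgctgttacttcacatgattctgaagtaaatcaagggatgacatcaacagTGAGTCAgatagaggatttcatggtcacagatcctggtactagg
Timp1, chrX:20869916-20870165, plus strand: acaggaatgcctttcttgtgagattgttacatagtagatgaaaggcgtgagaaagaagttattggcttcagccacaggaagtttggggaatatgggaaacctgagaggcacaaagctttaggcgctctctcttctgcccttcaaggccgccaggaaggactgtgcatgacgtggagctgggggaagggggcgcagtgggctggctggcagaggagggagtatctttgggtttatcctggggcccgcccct
Timp4, chr6:115252206-115252455, minus strand: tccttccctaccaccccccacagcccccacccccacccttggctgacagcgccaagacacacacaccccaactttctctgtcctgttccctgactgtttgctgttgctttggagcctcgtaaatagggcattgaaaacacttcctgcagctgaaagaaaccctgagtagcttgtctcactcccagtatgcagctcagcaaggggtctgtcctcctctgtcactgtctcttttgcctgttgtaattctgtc
The Mmp3 window held TGANTCA at -46 and TATAAA at -7 from the RNA start, and this Mmp12 window, which lies in an intron of a longer Mmp12 transcript, held TGANTCA at -44. The other Mmp12 window and those of Mmp14, Timp1, Timp2, Timp3 and Timp4 held neither. Over 32851 mouse promoters of the same length, 6.75% held TGANTCA and 12.4% held TATAAA. These matches describe letters and were not linked to the measured levels by a test. Whether TATAAA at -7 in the Mmp3 window works as a TATA box was not tested.

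The 27 libraries held 14376395 to 24436763 reads assigned to genes (median 17398586). The 6 muscle fibre markers (Acta1, Ckm, Myh4, Mylpf, Tnnt3 and Ttn) were present in every library, with summed levels from 19592 to 77857 FPKM. By the whole profile of tested genes, 9 of the 27 libraries lay nearer to the mean of another group than to that of their own, and D3 replicate 5 and D7 replicate 5 each lay nearest to the group of the other. D7 replicate 5 held 323.9 FPKM of the 6 macrophage markers, against 53.0 in D3 replicate 5. Tests that rest on these libraries are given with and without them, and shares and ratios that do are given with the values of these libraries. Since the labels do not say that samples came from separate mice, a p-value measures only the spread between samples. Because whole muscle was sequenced, fewer cells of a type and less RNA per cell cannot be told apart.

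**Figure D1:**
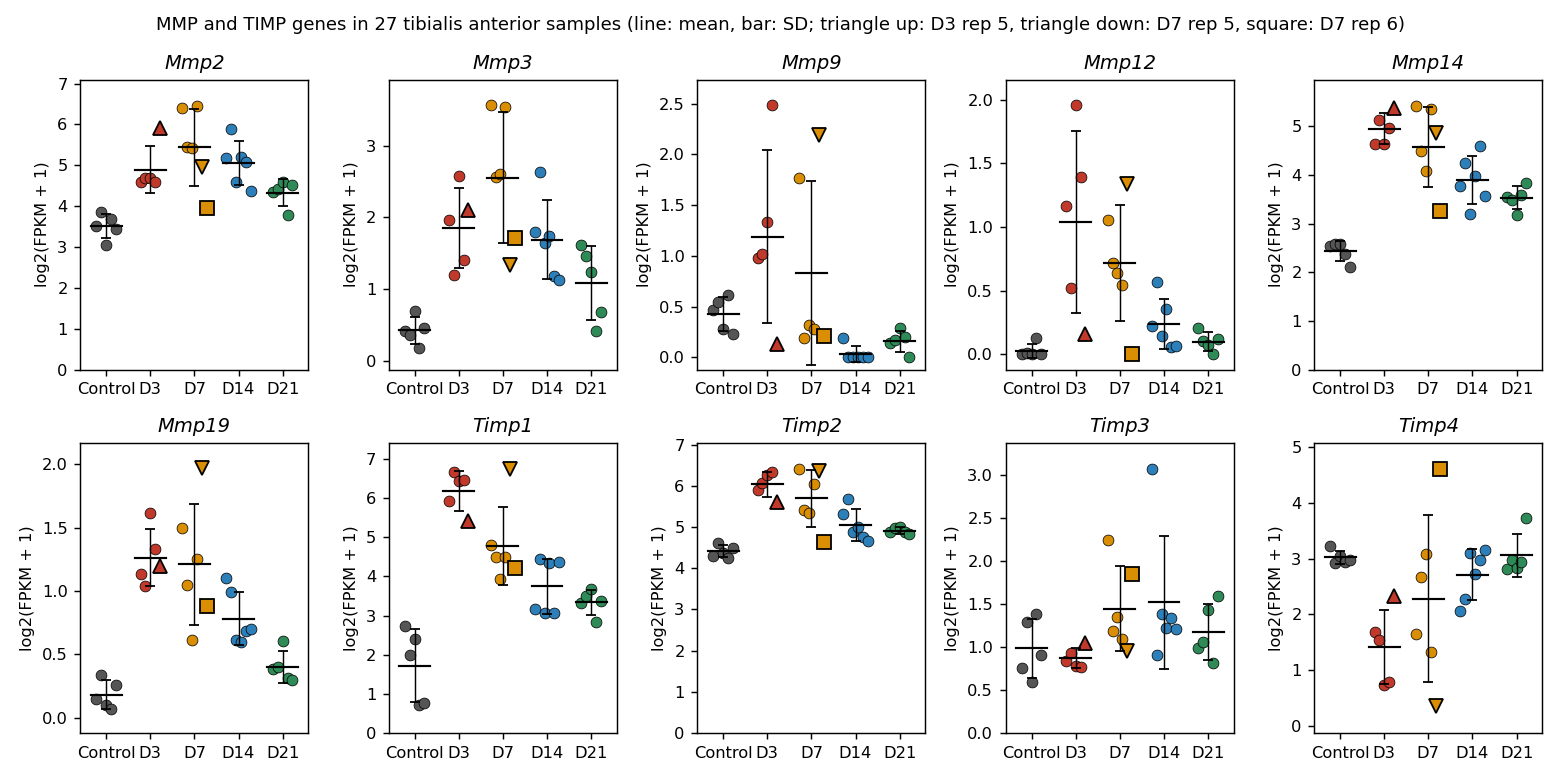
Levels of the 6 MMP and 4 TIMP genes as log2(FPKM + 1) in each of the 27 muscles by group, with the mean (line) and SD (bar); a triangle pointing up marks D3 replicate 5, one pointing down D7 replicate 5, and a square D7 replicate 6. All injured muscles lie above Control for Mmp14, Timp1 and Timp2, whereas the 5 D3 muscles lie below Control for Timp4.

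In Control muscle, Timp2 had the highest mean level of the 10 genes, 20.3 ± 2.23 FPKM (SD, n = 5), and its range did not overlap that of Mmp2 at 10.5 ± 2.26. Timp4 followed at 7.14 ± 0.708, Mmp14 at 4.46 ± 0.732, Timp1 at 2.85 ± 2.22 and Timp3 at 1.02 ± 0.485 FPKM, where the ranges of neighbours in this order overlapped apart from Timp4 and Mmp14. Mmp9, Mmp3, Mmp19 and Mmp12 were the lowest, with means of 0.352, 0.351, 0.136 and 0.0196 FPKM and overlapping ranges of neighbours. The 5 libraries held 9 to 28 reads each of Mmp9, 3 to 13 of Mmp3, 2 to 16 of Mmp19 and 0 to 8 of Mmp12, so that Control levels of these 4 genes rest on few reads. At D3 the order began with Timp1 at 75.0 ± 23.7 and Timp2 at 65.6 ± 12.96 FPKM, followed by Mmp2 and Mmp14 at 30.9 ± 15.6 and 30.5 ± 7.13, with overlapping ranges of neighbours. Timp4, the third in Control, was the sixth at D3.

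Against Control, 7 of the 10 genes rose and 1 fell at D3, 7 rose at D7, 5 rose at D14 and 2 rose at D21, by limma on log2(FPKM + 1) over all tested genes with a Benjamini-Hochberg adjusted p under 0.05. Of the 14630 tested genes, 43.2% changed at D3 (23.4% rose and 19.8% fell), 29.4% changed at D7 (15% rose), 20.3% at D14 (9.02% rose) and 3.43% at D21 (1.74% rose and 1.69% fell). The median log2 fold change of the 10 genes was 1.24 at D3, 1.16 at D7, 0.62 at D14 and 0.36 at D21, where the median of all tested genes was 0.01, 0.03, 0.02 and 0.01. Every sample lay above every Control sample for 7 of the genes at D3, 6 at D7, 6 at D14 and 3 at D21, against 19.8%, 7.25%, 7.67% and 5.26% of tested genes. Every sample lay below every Control sample for 1 of the genes at D3 (Timp4), 0 at D7, 1 at D14 (Mmp9) and 0 at D21, against 16.5%, 5.37%, 8.05% and 5.13% of tested genes. All comparisons with Control share the same 5 Control samples. Genes were tested if they had at least 0.5 FPKM in at least 5 samples of any group. Mmp12 and Mmp19 reached at most 0.0898 and 0.263 FPKM in Control, so they passed only through injured samples and could hardly be called lower. Mmp3 and Mmp9 reached at most 0.615 and 0.528 in Control. The counts of genes that rose or lay above Control thus partly follow from this filter. Of all genes called at D3, 54.1% were higher, against 95.5% with TPM and 91.4% with each library's own total as the denominator, and the 7 higher and 1 lower of the 10 genes kept their calls with both. Without D3 replicate 5 and D7 replicate 5, the 8 calls at D3 and the 7 at D7 stood and Mmp9 was also called at D3 (1.03, adjusted p = 0.00314).

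**Figure D2:**
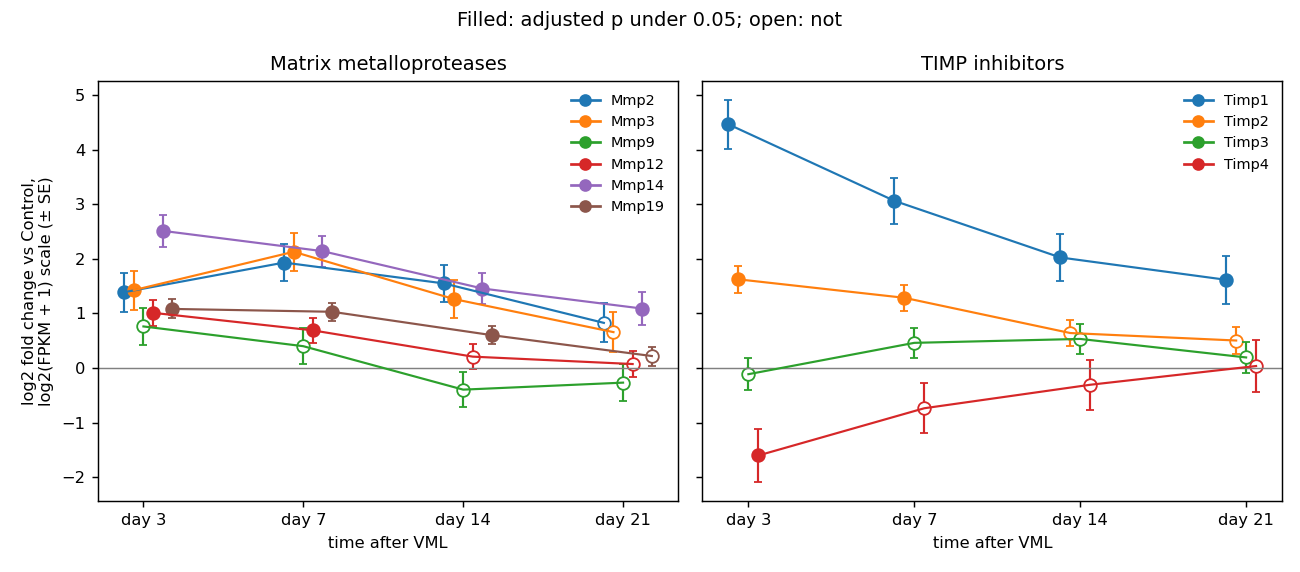
Log2 fold change against Control (vertical axis, log2(FPKM + 1) scale, bars show the SE) of MMP genes (left) and TIMP genes (right) at the 4 times after VML (horizontal axis). Filled points have an adjusted p under 0.05. Timp1 starts at 4.46 and Mmp14 at 2.51 at D3 and both remain filled at D21, Mmp2 and Mmp3 have their highest points at D7, and Timp4 starts at -1.60.

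Mmp14, the membrane-anchored collagenase, rose at all 4 times. Its level was 4.85, 4.98, 5.02, 4.16 and 3.31 FPKM in the Control samples and 23.96, 33.9, 23.8, 30.4 and 40.7 at D3. It ranged from 8.60 to 41.6 (median 24.8) at D7 and from 8.23 to 22.97 (median 13.7) at D14, and was 10.7, 10.2, 8.03, 11.02 and 13.3 at D21. All 22 injured muscles thus lay above all 5 Control muscles, and the group means came down from D3 to D21. The log2 fold change was 2.51 ± 0.30 (SE, limma adjusted p = 8.71e-07) at D3, 2.14 ± 0.28 (1.54e-05) at D7, 1.46 ± 0.28 (0.00147) at D14 and 1.09 ± 0.30 (0.0392) at D21. Exact permutation tests gave the smallest p that the design allows at each time, 0.00794 for 5 against 5 samples and 0.00433 for 6 against 5. The D21 call was lost without any 1 of 9 of the 10 Control and D21 libraries, with adjusted p from 0.0586 to 0.103, and stood without D21 replicate 3 (0.0385).

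Mmp2, the gelatinase that Mmp14 activates, had its highest mean at D7. It stood at 10.4, 13.4, 7.33, 11.8 and 9.81 FPKM in Control and 23.04, 24.8, 24.9, 23.05 and 58.8 at D3, ranged from 14.5 to 86.3 (median 42.2) at D7 and from 19.8 to 58.5 (median 34.0) at D14, and was 19.4, 20.3, 23.1, 12.7 and 22.03 at D21. Every sample from D3 to D14 lay above the Control range, and 4 of 5 did at D21. The D3 value of 58.8 came from replicate 5, the other 4 D3 samples lying within 2 FPKM of each other. Mmp2 rose by 1.39 ± 0.36 at D3 (limma adjusted p = 0.00270), 1.93 ± 0.34 at D7 (0.000324) and 1.55 ± 0.34 at D14 (0.00311) on the log2 scale, and at D21 the difference was 0.83 ± 0.36 (0.193). The D21 difference passed with only the Control and D21 samples in the fit (0.0186) and with the replicate letter as a block (1.08, 0.0332). Without D3 replicate 5 and D7 replicate 5, the D3 value was 1.14 (adjusted p = 0.0112) and the D7 value 2.03 (0.000198). The 6 fibroblast markers (Pdgfra, Pdgfrb, Dcn, Lum, Ly6a and Col1a1), which were never at 0, summed to 116 to 155 FPKM in Control, 359 to 665 at D3, 330 to 807 at D7, 166 to 414 at D14 and 132 to 198 at D21, with 4, 3, 3 and 1 of the 6 called higher. Their part in the levels of Mmp2 and Mmp14 was not tested.

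Mmp3, a stromelysin, had its highest mean at D7, as Mmp2 did. It stood at 0.334, 0.290, 0.615, 0.135 and 0.379 FPKM in Control and at 2.90, 1.29, 4.95, 1.66 and 3.31 at D3. It ranged from 1.53 to 10.8 (median 4.99) at D7 and from 1.18 to 5.23 (median 2.24) at D14, and was 2.07, 1.75, 1.36, 0.333 and 0.597 at D21. All samples from D3 to D14 lay above the Control range, and 3 of 5 did at D21. The log2 fold change was 1.43 ± 0.36 (limma adjusted p = 0.00237), 2.13 ± 0.34 (0.000130) and 1.26 ± 0.34 (0.0117) at D3, D7 and D14 and 0.66 ± 0.36 (0.312) at D21. Mmp3 was measured with 3 to 523 reads per library.

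Mmp12, the macrophage elastase, was near 0 in Control, with 0, 0.00803, 0, 0.0898 and 0 FPKM from 9 reads in all. It reached 1.24, 0.431, 2.89, 1.62 and 0.117 FPKM at D3, ranged from 0 to 1.52 (median 0.603) at D7 and from 0.0403 to 0.482 (median 0.136) at D14, and was 0.156, 0.0727, 0.0494, 0 and 0.0866 at D21. The D3 samples lay above Control, whereas 1 of the 6 D7 samples, replicate 6, held 0 reads. Mmp12 rose by 1.01 ± 0.24 at D3 (limma adjusted p = 0.00121) and 0.69 ± 0.23 at D7 (0.0235) on the log2 scale. The D7 call was lost without D7 replicate 1 (0.62, adjusted p = 0.0544) or D7 replicate 5 (0.57, 0.0701). The values at D14 and D21 were 0.21 ± 0.23 (0.535) and 0.07 ± 0.24 (0.896). The pseudocount of 1 FPKM makes the log2 values of Mmp12, Mmp9, Mmp19 and Mmp3 smaller than their ratios.

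The 6 macrophage markers (Adgre1, Cd68, Csf1r, Mrc1, Itgam and Ptprc), none of them at 0 in any library, summed to 3.34 to 4.39 FPKM in Control, 53.0 to 331 at D3, 8.10 to 324 at D7, 9.69 to 23.8 at D14 and 7.17 to 11.5 at D21. All 6 were called higher at D3, 5 at D7, 1 at D14 and 0 at D21. The D3 sample lowest in Mmp12, replicate 5, was also lowest in these markers, as D7 replicate 6 was at D7. At D7, replicate 5 was highest in both. The order differed in other samples: at D3 replicate 4 was highest in the markers (331 FPKM) and replicate 3 in Mmp12 (2.89), and at D14 replicate 5 was highest in the markers (23.8) and lowest in Mmp12 (0.0403). The part of macrophages in the level of Mmp12 was not tested.

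Mmp9, the gelatinase of neutrophils and macrophages, overlapped Control at D3 and D7 and was near 0 at D14. It stood at 0.382, 0.460, 0.217, 0.528 and 0.174 FPKM in Control and 0.975, 1.02, 1.52, 4.60 and 0.0930 at D3, and ranged from 0.138 to 3.58 (median 0.231) at D7. At D14, 5 of 6 samples held 0 reads and the remaining one 11 reads (0.140 FPKM), and at D21 the values were 0.1005, 0.127, 0.219, 0.150 and 0. All 6 D14 samples lay below all 5 Control samples, as they did for 8.05% of tested genes, with an exact permutation p of 0.00433, the smallest possible. None of the 4 limma comparisons passed the threshold. The log2 fold change was 0.76 ± 0.34 (adjusted p = 0.0728) at D3, 0.40 ± 0.33 (0.371) at D7, -0.40 ± 0.33 (0.402) at D14 and -0.27 ± 0.34 (0.704) at D21. Without D3 replicate 5, the D3 value was 1.03 with an adjusted p of 0.0147. With a pseudocount of 0.1 in place of 1, the D14 value was -1.89 with an adjusted p of 0.0487, and with only the Control and D14 samples in the fit it was -0.40 (0.0120). The D3 value passed with TPM (1.12, 0.0343) and with own totals as the denominator (1.03, 0.0368).

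Of the 7 neutrophil markers, S100a8, S100a9 and Csf3r passed the filter, and all 3 were called higher at D3 and 2 at D7. The 7 summed to 0.456 to 3.93 FPKM in Control, 19.3 to 37.7 at D3, 1.79 to 97.8 at D7, 2.25 to 13.04 at D14 and 0.298 to 3.48 at D21. The markers Ly6g, Mpo and Elane were at 0 in all Control and all D21 libraries. The D3 libraries together held 1 read of Ly6g, 14 of Mpo and 5 of Elane. D7 replicate 5, which had the highest Mmp9 of its group, also had the highest sum at 97.8, and D3 replicate 4 was highest in both at D3. The order differed in other samples. D3 replicate 5, lowest of its group in Mmp9, had the median sum of 25.4. At D14, replicate 5 had the highest sum (13.04) and 0 reads of Mmp9, and replicate 1, the only one with Mmp9 reads, summed to 3.04. The part of neutrophils was not tested.

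Mmp19 stood at 0.106, 0.263, 0.0724, 0.0460 and 0.193 FPKM in Control and at 1.19, 1.06, 2.06, 1.52 and 1.29 at D3. It ranged from 0.532 to 2.92 (median 1.22) at D7 and from 0.515 to 1.15 (median 0.618) at D14, and was 0.302, 0.319, 0.523, 0.245 and 0.228 at D21. All samples up to D14 exceeded the Control range and the D21 samples overlapped it. The log2 fold change was 1.08 ± 0.17 (limma adjusted p = 3.14e-05), 1.03 ± 0.17 (0.000129), 0.60 ± 0.17 (0.0129) and 0.22 ± 0.17 (0.512) from D3 to D21. The overlap with Tmem198b and, by 212 bases, with the antisense gene Gm47093 makes this count uncertain.

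Timp1, an inhibitor of most secreted MMPs, had the largest fold change of the 10 genes on the log2(FPKM + 1) scale at each of the 4 times. As a plain ratio of group means to Control, Mmp12, whose Control mean rests on 9 reads, was higher at all 4 times (64.4 against 26.3 for Timp1 at D3). By this ratio Mmp3 was also above Timp1 at D7, D14 and D21, and Mmp19 at D14. Timp1 stood at 5.66, 2.94, 4.32, 0.640 and 0.692 FPKM in Control and at 59.8, 100, 85.7, 87.8 and 41.6 at D3. It ranged from 14.4 to 105 (median 21.5) at D7 and from 7.39 to 20.6 (median 13.6) at D14, and was 8.94, 10.2, 11.8, 6.15 and 9.28 at D21. The lowest injured muscle, at 6.15, still exceeded the highest Control muscle, at 5.66. Timp1 rose by 4.46 ± 0.44 (limma adjusted p = 1.18e-07), 3.06 ± 0.42 (2.43e-05), 2.02 ± 0.42 (0.00232) and 1.61 ± 0.44 (0.0411) on the log2 scale at D3, D7, D14 and D21. The D7 value of 105 came from replicate 5, and without D3 replicate 5 and D7 replicate 5 the D7 value was 2.67 (1.75e-05). The call at D21 stood without Control replicate 1, Control replicate 3 or D21 replicate 4, and was lost without any 1 of the other 7 libraries, with adjusted p from 0.0652 to 0.125.

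Timp2, the inhibitor that takes part in Mmp2 activation, rose at D3 and D7. It stood at 18.8, 23.65, 19.7, 18.1 and 21.5 FPKM in Control and at 59.0, 65.7, 76.1, 79.4 and 47.5 at D3. It ranged from 23.71 to 83.4 (median 53.3) at D7 and from 24.5 to 50.1 (median 29.6) at D14, and was 28.5, 30.7, 30.9, 28.5 and 27.2 at D21. All injured muscles lay above all Control muscles, and the group means came down from D3 to D21. Timp2 rose by 1.62 ± 0.25 at D3 (limma adjusted p = 1.71e-05) and 1.29 ± 0.24 at D7 (0.000487) on the log2 scale, and the differences of 0.64 ± 0.24 at D14 (0.0558) and 0.50 ± 0.25 at D21 (0.258) missed the threshold. The exact permutation p of 0.00433 at D14 and 0.00794 at D21 were the smallest the design allows, and 7.67% and 5.26% of tested genes were as separated upward at these times. When only the Control and D21 samples entered the fit, the D21 difference had an adjusted p of 0.00785. The D14 adjusted p ran from 0.0111 to 0.113 over the alternative settings and passed the threshold in 7 of 13.

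Timp3, an inhibitor that binds to the matrix and also blocks ADAM proteases, was not called at any time. Its means were 1.02 ± 0.485 FPKM in Control, 0.834 ± 0.153 at D3, 1.87 ± 1.08 at D7, 2.33 ± 2.48 at D14 and 1.31 ± 0.530 at D21 (SD, n = 5, 5, 6, 6 and 5). The groups overlapped throughout, and the D14 mean included 1 sample, replicate 1, at 7.36 FPKM, where the other 5 lay at 0.877 to 1.60. The log2 fold change was -0.11 ± 0.29 (limma adjusted p = 0.785), 0.46 ± 0.28 (0.216), 0.53 ± 0.28 (0.175) and 0.19 ± 0.29 (0.752). The D3 value was 0.26 with TPM and 0.19 with the library's own total of reads as the denominator. The exonic bases shared with Syn3 limit this count.

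Timp4, the TIMP known for its expression in heart and skeletal muscle, was the only one of the 10 genes called lower against Control. It stood at 8.33, 6.60, 7.22, 6.70 and 6.83 FPKM in Control and at 2.24, 1.91, 0.675, 0.730 and 4.003 at D3. It ranged from 0.287 to 23.4 (median 3.74) at D7 and from 3.16 to 7.93 (median 6.22) at D14, and was 6.01, 6.84, 6.10, 6.71 and 12.2 at D21. All D3 samples lay below all Control samples, as they did for 16.5% of tested genes, and at D7 4 of 6 samples did. Timp4 fell by 1.60 ± 0.48 on the log2 scale at D3 (limma adjusted p = 0.00877). The values were -0.74 ± 0.46 (0.232) at D7, -0.31 ± 0.46 (0.667) at D14 and 0.04 ± 0.48 (0.980) at D21. The D7 value of 23.4 came from replicate 6, and without it the D7 value was -1.20 with an adjusted p of 0.0142. Without D3 replicate 5 and D7 replicate 5, the latter the lowest of D7 at 0.287, the D7 value was -0.35 (0.552). The 6 muscle fibre markers summed to 64874 to 77857 FPKM in Control, 19592 to 51895 at D3, 23630 to 74995 at D7, 35369 to 76200 at D14 and 53840 to 74060 at D21, with 6, 3, 1 and 0 of the 6 called lower. Their part in the level of Timp4 was not tested.

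The make-up of the TIMP transcripts, given as a description without a test, was read as the share of each gene in the summed FPKM of the 4 TIMPs in a sample. In Control, Timp2 made up 65.1% ± 6.11, Timp4 22.9% ± 2.35, Timp1 8.74% ± 6.57 and Timp3 3.34% ± 1.77 (SD, n = 5). At D3, Timp1 made up 51.4% ± 5.54, Timp2 46.3% ± 4.37, Timp4 1.61% ± 1.59 and Timp3 0.633% ± 0.294 (SD, n = 5). The Timp1 share was 44.2% or more in each D3 sample and 16.9% or less in each Control sample. By D21, Timp2 was at 61.9% ± 5.19, Timp1 at 19.4% ± 3.25 and Timp4 at 15.9% ± 4.77. Between these times, Timp1 made up 30.6% ± 12.9 at D7 and 24.4% ± 9.68 at D14 (SD, n = 6). The D7 mean included replicate 5 at 56.3%, where the median was 25.2%. The MMP side was mostly Mmp2 and Mmp14. At D3 the Mmp2 share was 56.4% in replicate 5, where the median was 41.5%. At D7, replicate 5 had 44.2% Mmp2 and 41.6% Mmp14, where the medians were 59.6% and 29.9%. Mmp2 made up 66.0% ± 6.46 and Mmp14 28.5% ± 5.77 of the summed FPKM of the 6 MMPs in Control, against 43.5% ± 7.61 and 45.2% ± 6.38 at D3, 57.6% ± 7.36 and 31.3% ± 5.65 at D7, 65.0% ± 5.18 and 28.5% ± 6.94 at D14, and 60.7% ± 6.20 and 33.9% ± 7.65 at D21.

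**Figure D3:**
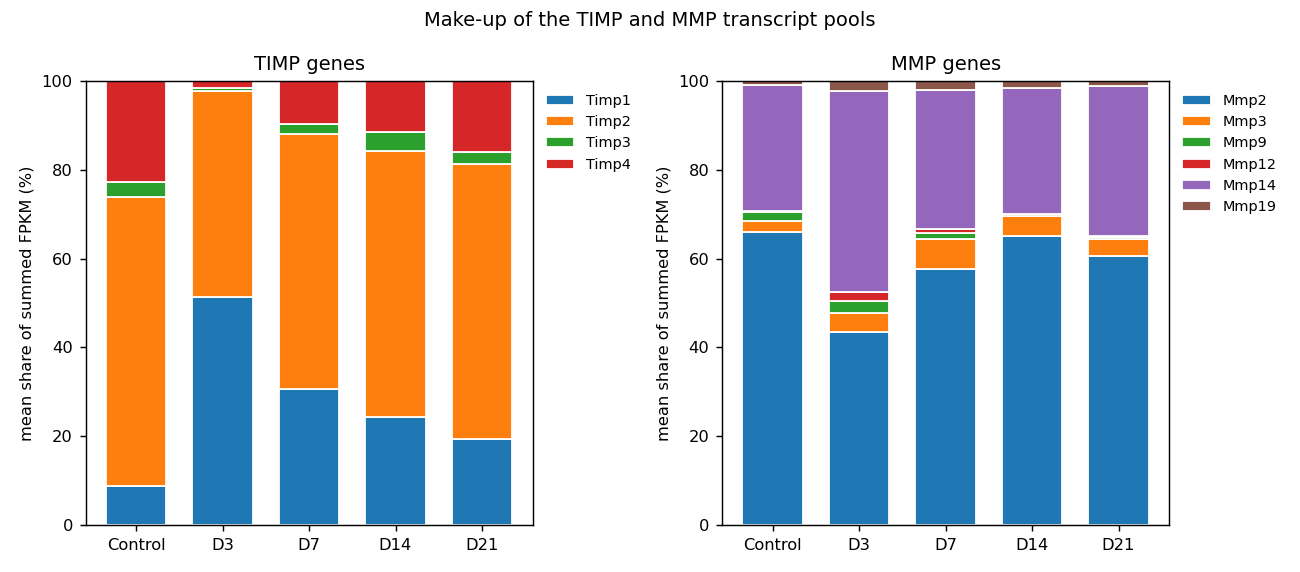
Mean share (vertical axis, percent) of each gene in the summed FPKM of the 4 TIMP genes (left) and of the 6 MMP genes (right) in each group. Timp1 goes from 8.74% in Control to 51.4% at D3 and Timp4 from 22.9% to 1.61%, and Mmp14 goes from 28.5% to 45.2% of the MMPs.

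The summed level of the 6 MMPs was 15.9 ± 2.45 FPKM in Control, 68.6 ± 20.3 at D3, 84.8 ± 45.6 at D7, 52.2 ± 18.5 at D14 and 31.9 ± 4.38 at D21, and that of the 4 TIMPs 31.4 ± 2.99, 143 ± 33.7, 98.7 ± 47.6, 55.1 ± 11.9 and 47.3 ± 3.89. D3 replicate 5 held 104 FPKM of the MMPs and 94.2 of the TIMPs, and D7 replicate 5 held 187 of the TIMPs. The ratio of the sums within a sample was 0.480, 0.559, 0.418, 0.618 and 0.465 in Control and 0.437, 0.371, 0.368, 0.373 and 1.11 at D3. It ran from 0.361 to 1.56 (median 1.02) at D7 and from 0.608 to 1.38 (median 0.919) at D14, and was 0.738, 0.670, 0.658, 0.582 and 0.713 at D21. The D3 ratios lay within or below the Control range except in replicate 5, without which the D3 mean was 0.387 in place of 0.531. At D7, replicates 5 and 6 had 0.361 and 0.391 and the other 4 samples 1.01 or more. The ratio of Mmp14 to Timp2 averaged 0.221 ± 0.0423 in Control, 0.495 ± 0.215 at D3, 0.458 ± 0.103 at D7, 0.463 ± 0.217 at D14 and 0.369 ± 0.0830 at D21, and it exceeded the highest Control value of 0.258 in every injured sample. The lowest injured sample was D21 replicate 3 at 0.260. The D3 mean included replicate 5 at 0.856, where the D3 median was 0.406. D7 replicate 5, at 0.349, was the lowest of its group. These ratios compare transcript levels per length, not protein or enzyme activity.

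**Figure D4:**
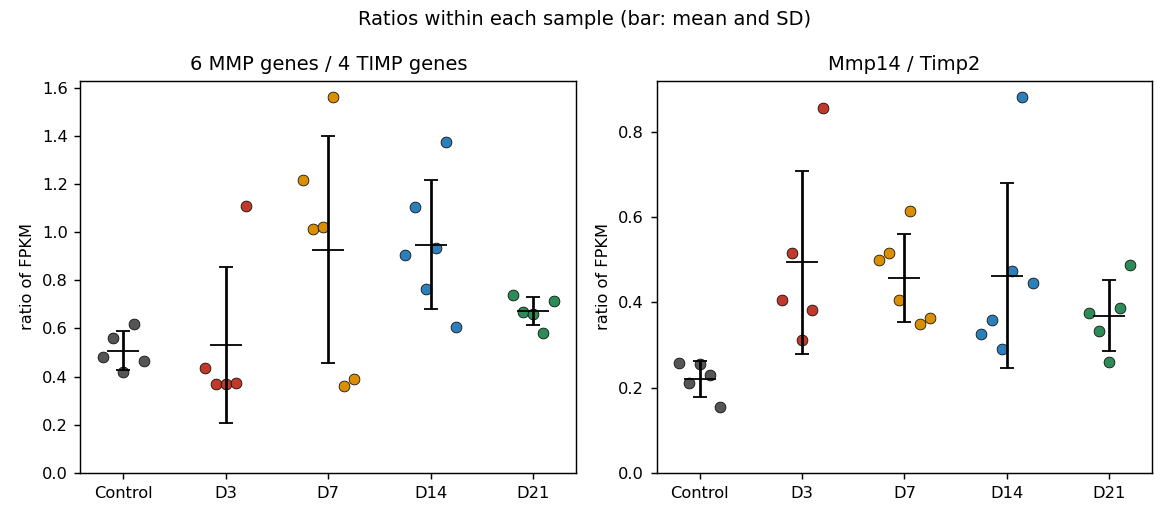
Ratio of the summed FPKM of the 6 MMP genes to that of the 4 TIMP genes (left) and of Mmp14 to Timp2 (right) in each sample, with mean and SD per group. On the left, 4 of 5 D3 samples lie at 0.437 or below and 4 of 6 D7 samples at 1.01 or above, and on the right all injured samples lie above the Control maximum of 0.258.

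Between successive times after VML, none of the 10 genes passed the test by limma or by voom on the recovered reads. From D3 to D7 none of the 10 genes was called by limma (2 had an unadjusted p under 0.05), where 0.0478% of tested genes were called. Timp1 differed by -1.40 ± 0.42 (adjusted p = 0.0973) and Timp4 by 0.86 ± 0.46 (0.375). Without D3 replicate 5 and D7 replicate 5, 4 of the 10 were called. Timp1 then fell by 1.98 (adjusted p = 0.000384), Mmp9 by 0.90 (0.0214) and Mmp12 by 0.66 (0.0239), and Timp4 rose by 1.47 (0.0169) on the log2 scale. That fit, chosen after the data were seen, called 2265 of the 14630 tested genes from D3 to D7 in place of 7. From D7 to D14 none of the 10 was called (7 had an unadjusted p under 0.05). Of tested genes, 0.335% were called, 0.219% lower and 0.116% higher. Without D7 replicate 6, Mmp14 fell by 0.95 (limma adjusted p = 0.0442) and Timp2 by 0.86 (0.0293). From D14 to D21 none was called (2 had an unadjusted p under 0.05) and 0% of tested genes were. The shares of tested genes use the adjusted p and cannot be set against the counts by unadjusted p.

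From D3 to D21, 6 of the 10 genes fell and 1 rose, where 25.5% of tested genes were called, 16.2% lower and 9.23% higher. Timp1 fell by 2.85 ± 0.44 on the log2 scale (limma adjusted p = 8.82e-05), Mmp14 by 1.42 ± 0.30 (0.00102), Timp2 by 1.12 ± 0.25 (0.00167), Mmp12 by 0.94 ± 0.24 (0.00490) and Mmp19 by 0.86 ± 0.17 (0.000780). Mmp9 fell by 1.03 ± 0.34 (0.0272), a call lost without D3 replicate 3 (0.99, adjusted p = 0.0615), D3 replicate 4 (0.70, 0.126) or D21 replicate 5 (0.99, 0.0531). Timp4 rose by 1.64 ± 0.48 (0.0140). Mmp2 (-0.56 ± 0.36, adjusted p = 0.255), Mmp3 (-0.77 ± 0.36, 0.118) and Timp3 (0.31 ± 0.29, 0.463) were not called. Without D3 replicate 5 and D7 replicate 5, all 10 genes kept direction and call. Mmp9 was then -1.29 (limma adjusted p = 0.000635), Timp4 1.86 (0.00153) and Mmp2 -0.31 (0.545).

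Likeness between genes was described by the root mean square difference of standardized log2(FPKM + 1) profiles over the 27 libraries, where 0 would mean identical profiles; the libraries share group, depth and cell content. Among the 10 genes, the closest were Mmp19 and Timp2 (0.426), Mmp14 and Timp2 (0.496) and Mmp2 and Mmp3 (0.516). Timp4 was far from all others, at 1.28 from Timp3 and 1.68 to 1.93 from the remaining 8. Of all tested genes, those closest to Mmp2 were Antxr1 (0.336) and Ssc5d (0.338), and those closest to Mmp14 were Mxra8 (0.293) and C1qtnf6 (0.302). Mmp3 was closest to Mmp2 and then to Antxr1 (0.530). The closest to Mmp12 were Gpnmb (0.390) and Ctsl (0.419), to Mmp9 Adamts4 (0.512) and Angptl4 (0.518), and to Mmp19 Zfp36l2 (0.358) and Lix1l (0.365). For the TIMPs they were Abracl (0.332) and Ptgr1 (0.356) for Timp1, Srpx2 (0.298) and Slc25a24 (0.341) for Timp2, Kmt2e (0.439) and Gm9821 (0.525) for Timp3, and Sult1a1 (0.369) and Slc38a3 (0.391) for Timp4.

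Of 17 other Mmp genes, 5 passed the filter on low values, and 4 of these rose at D3, 3 at D7, 1 at D14 and 0 at D21 (2 with an unadjusted p under 0.05) by limma. Of all tested genes, 23.4%, 15%, 9.02% and 1.74% rose at these times, so that 1 of 5 at D14 is too few to read. The filter counted samples of any group. Mmp27, at 0 in 4 of 5 Control libraries, and Mmp13, with 1 Control sample above 0.5 FPKM, passed it mainly through injured samples. Such genes could hardly be called lower, so the counts of rises partly follow from the filter. Mmp23 had the largest fold change at D3 on the log2(FPKM + 1) scale, from 1.03 ± 0.352 FPKM in Control to 7.27 ± 1.33 (SD, n = 5), with log2 fold changes of 2.03 ± 0.25 (adjusted p = 1.25e-06) at D3, 1.76 ± 0.24 (1.64e-05) at D7 and 1.17 ± 0.24 (0.00185) at D14. Mmp11 rose by 0.61 ± 0.21 (0.0189) at D3 and 0.69 ± 0.20 (0.0118) at D7, and Mmp27 by 0.73 ± 0.16 (0.000580) and 0.49 ± 0.15 (0.0167). Mmp27 held 0 to 89 reads per library, and its ratio of D3 to Control means was 12.9 against 7.07 for Mmp23, with 8 reads in all Control libraries together. Mmp11 shares 155 exonic bases with Chchd10 on the opposite strand. Mmp13, a collagenase, stood at 5.70, 0, 0.0638, 0.0912 and 0 FPKM in Control and 3.76, 2.56, 4.18, 1.67 and 6.26 at D3, and 1 D7 sample, replicate 1, was at 40.5. Its D3 difference was 1.56 ± 0.61 (adjusted p = 0.0395), and the groups overlapped through the 1 Control sample at 5.70. The count at D3 was 2 without D3 replicate 5 or without Control replicate 3. Mmp15 was not called at any time. Of the 12 that did not pass the filter, Mmp1a, Mmp1b and Mmp7 held 0 reads in every library, and the highest level of the remaining 9 was 1.23 FPKM. Mmp8, the neutrophil collagenase, and Mmp10 held 0 reads in all 5 Control libraries and reads in all 5 at D3, and were named after these values were seen. Mmp20 and Mmp24 were also at 0 in all 5 Control libraries, and at D3 were at 0 in 3 of 5 and in all 5. Of tested genes, 19.8% had every D3 sample above every Control sample, and the share among untested genes is not given here.

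Of 24 genes that activate, inhibit, bind or clear MMPs, 19 were tested, and 14 rose and 2 fell at D3, 11 rose and 1 fell at D7, 3 rose and 1 fell at D14, and 0 were called at D21 (3 with an unadjusted p under 0.05) by limma. Of all tested genes, 19.8% fell at D3, and 20.3% were called at D14, near the 4 of 19 here. Those that rose at D3 included Thbs2, a matrix protein that binds Mmp2 (2.44 ± 0.26, adjusted p = 3.09e-07), and Cd44, a hyaluronan receptor (2.24 ± 0.26, 7.82e-07). Plaur, the urokinase receptor (2.23 ± 0.38, 5.81e-05), Thbs1 (2.12 ± 0.39, 0.000128) and Pcolce, an enhancer of procollagen cleavage (1.79 ± 0.23, 2.49e-06), also rose. At D14, Pcolce (1.27 ± 0.22, 0.000532), Thbs2 (1.16 ± 0.25, 0.00288) and Cd44 (0.93 ± 0.25, 0.0110) were higher. Serpine2, a serpin that blocks urokinase and thrombin, fell by 0.99 ± 0.22 at D3 (0.000666), 0.91 ± 0.21 at D7 (0.00249) and 1.10 ± 0.21 at D14 (0.00114). The other gene lower at D3, Bsg, an inducer of MMP expression (-0.85 ± 0.25, 0.00900), and the values of Serpine2 at D3 and D7 were chosen after they were seen. At D7 the largest were Thbs2 (2.28 ± 0.25, adjusted p = 2.11e-06), Cd44 (1.56 ± 0.25, 0.000126), Thbs1 (1.37 ± 0.37, 0.00802), Plaur (1.36 ± 0.36, 0.00706), Pcolce (1.34 ± 0.22, 0.000150) and Lrp1, a clearance receptor (1.16 ± 0.24, 0.00135). The median log2 fold change of the 19 was 0.83, 0.53, 0.29 and 0.17 at the 4 times.

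**Figure D5:**
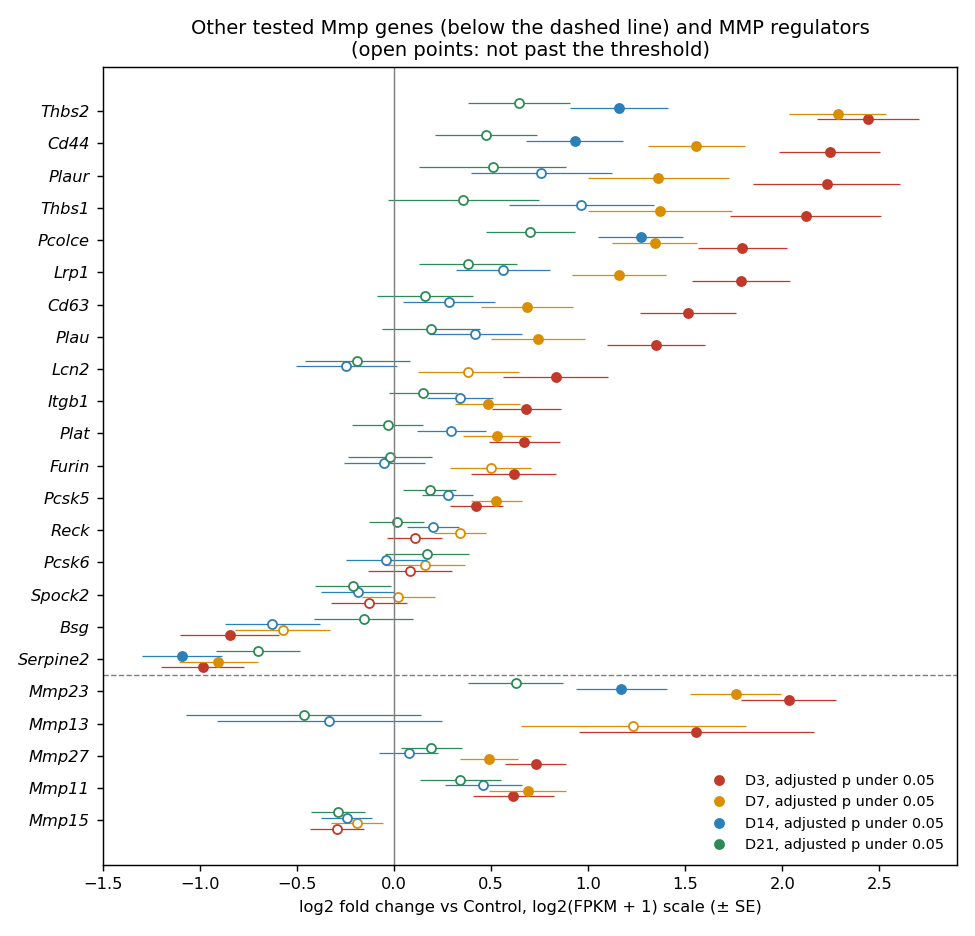
Log2 fold change against Control (horizontal axis, log2(FPKM + 1) scale, bars show the SE) of the 5 other tested Mmp genes (below the dashed line) and 18 of the 19 tested regulators of MMPs (above it) at D3, D7, D14 and D21. Filled points have an adjusted p under 0.05; 17 of the filled D3 points lie to the right of 0 and 2, Serpine2 and Bsg, to the left, and no D21 point is filled.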

How the data were processed

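Messenger RNA of 27 tibialis anterior muscles was measured. The authors selected it with poly-T beads, prepared non-directional libraries, aligned the reads with HISAT2 2.0.5, counted them per gene with featureCounts 1.5.0-p3 and deposited 1 table of FPKM for 54532 genes; how FPKM was normalized between samples is not given in the sources used here. FPKM times gene length gave whole reads for 100% of values above 0, within 0.02 plus an allowance that grew with the number of reads. High counts therefore could not fail. The denominators were 0.747 to 1.48 times each library's own total, so a scaling between samples is already in the values. This factor went with the group. It was 0.747 to 0.819 in Control, 1.14 to 1.48 at D3, 0.810 to 1.44 at D7, 0.810 to 1.33 at D14 and 0.776 to 0.964 at D21. Scaling and time after injury therefore cannot be told apart.

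Groups and replicate numbers were taken from sample titles. The 14630 genes with at least 0.5 FPKM in at least 5 samples entered a single limma model of the 5 group means (R 4.3.3, limma 3.58.1) on log2(FPKM + 1) over the 27 samples, with the variance allowed to follow the mean; p-values were two-sided and adjusted by Benjamini-Hochberg within each of 8 comparisons, with a threshold of 0.05. Fold changes on this scale understate those of low genes. Exact two-sided permutation tests over all divisions of the samples were run for each of the 10 genes against Control. The fit was tested on simulated data. Gene positions and overlaps came from GENCODE M21 and promoters from RefSeq (GRCm38.p6). Tables and figures used Python 3.11.15, pandas 2.3.3, scipy 1.17.1 and matplotlib 3.10.9.

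The 10 genes, the gene lists and the tests were chosen with earlier results of these data known. The text names all 10 genes; from the lists, the genes called in a comparison or, of more than 6, the 6 with the largest absolute log2 fold change; and for each of the 10 the 2 tested genes with the closest profile. Alternatives were pseudocounts of 0.1 and 0.5, no filter, a minimum of 1 FPKM, scaling by quantiles, by median ratios or to TPM, the own total of reads as denominator, voom on the recovered reads, no trend, only the 2 groups compared, the replicate number or letter as a block, and each sample left out. Leaving out D3 replicate 5 and D7 replicate 5 together was added after seeing the data. Some genes and marker lists are not reported here.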

Additional observations from a re-analysis of the deposited data

Results flagged for a closer look

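In 6 of the 50 groups of 5 or 6 samples, the highest sample lay farther from the others than Dixon's 95% limit allows. The limit assumes normally spread values and the 50 groups share the same 27 libraries, so no number expected by chance is set beside the 6. They were Mmp2 in D3 replicate 5 (58.8 FPKM), Timp1 in D7 replicate 5 (105 FPKM), Mmp12 in Control replicate 4 (0.0898 FPKM), Mmp9 in D14 replicate 1 (0.140 FPKM), Timp3 in D14 replicate 1 (7.36 FPKM) and Timp4 in D21 replicate 5 (12.2 FPKM). The values of Mmp12 and Mmp9 rest on 8 and 11 reads. Timp4 at D21 was 0.04 on the log2 scale against Control with D21 replicate 5 and -0.13 without it, both uncalled.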

How the results depend on the processing

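The 8 genes called at D3, Mmp2, Mmp3, Mmp14, Mmp19, Timp1 and Timp2 at D7, and Mmp2, Mmp14 and Timp1 at D14 kept direction and call under every alternative run. The number of the 10 called at D21 was less stable. It was 2, but 0 with no filter, quantile normalization, TPM or own totals, 1 with voom, 4 with only the 2 groups compared (Mmp2 and Timp2 added) and 0 to 1 with 1 library left out. Samples of different groups with the same replicate number had correlations of deviations of -0.52 to 0.57 (median near 0 over 51 pairs). These values cannot tell whether some samples were paired. With the number as a replicate block, the D21 count was 1, the other Mmp genes called were 2 at D14 and 1 at D21, and the regulators called at D21 were 2; with the letter as a replicate block these counts were 3, 2, 2 and 3 (Mmp2 added at D21). The block by letter put Timp4 at D21 at -0.25. With only the 2 groups compared, the other Mmp genes called at D14 were 2, and the regulators called were 10 at D14 and 2 at D21. Without D3 replicate 5 and D7 replicate 5, the other Mmp genes called at D3 were 2 and the 10 genes called from D3 to D7 were 4. With 1 library left out, these counts ran from 2 to 4 and from 0 to 2, and that from D7 to D14 from 0 to 2. Scaling shifted the median of all genes against Control by 0.49, 0.45, 0.27 and 0.10 (log2) at the 4 times with TPM, by 0.39, 0.33, 0.23 and 0.10 with own totals, and by -0.13 at D3 with quantile normalization, and the share of higher among called genes at D3 went from 54.1% to 95.5%, 91.4% and 42.6%. From D7 to D21 that share was 51.0%, 44.5% and 50.8%, but 96.8%, 94.0% and 85.7% with TPM and 92.7%, 88.8% and 79.7% with own totals. Of all tested genes, 4296, 2969 and 502 were called at D7, D14 and D21, but 6513, 1785 and 49 with TPM, and at D21 133 with own totals, 247 with no filter, 294 with quantile normalization, 282 with voom, 1477 with only the 2 groups and 795 or 1233 with the replicate block by number or letter. Calls were lost for Mmp3 at D14 with voom (adjusted p = 0.0540), Mmp19 at D14 with TPM (0.0751), Mmp12 at D7 with no filter (0.0526) or quantile normalization (0.0546), and Mmp9 and Mmp12 from D3 to D21 with voom (0.0647 and 0.0516). From D3 to D21, Mmp9 was also lost with no filter (0.0614) and the block by letter (0.0808) and Timp4 with the block by letter (0.0516). Calls were gained for Timp3 at D7 with TPM (0.0480) and for Mmp3 from D3 to D21 with TPM (0.0388) and own totals (0.0433). Uncalled values changed sign as follows. With TPM, Timp3 was 0.26 at D3, -0.0587 from D7 to D14 and -0.0154 from D3 to D21, and Timp4 was 0.10 at D14. With own totals, Timp3 was 0.19 at D3 and -0.0023 from D7 to D14, and Timp4 was 0.0332 at D14. Timp3 from D7 to D14 was -0.0266 without D3 replicate 5 and D7 replicate 5, and -0.24 to 0.23 with 1 library left out. Mmp19 from D3 to D7 was -0.20 to 0.0667 and Timp4 at D21 -0.13 to 0.10 with 1 library left out. The cause of these changes was not tested. Depth limits Mmp3, Mmp9, Mmp12 and Mmp19, with 28 or fewer reads in every Control library.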
